A study of Mus musculus with 2 samples.

Results

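The 10 genes described here encode transcription factors of mesenchymal lineages: Osr1, Osr2, Prrx1, Twist1, Twist2, Meox1, Meox2, Tcf21, Gata6 and Scx. They were chosen by symbol among the 28001 features of 2 single-cell RNA-seq libraries of adult mouse skeletal muscle. Both libraries came from Hic1CreERT2/CreERT2;Rosa26LSLtdTomato/tdTomato mice on a C57BL/6J background, in which tamoxifen (TAM) lets a Cre recombinase expressed from the Hic1 locus switch on the red reporter tdTomato for good, so that every cell analysed carries the reporter and the mice carry the knock-in on both Hic1 alleles. In the E10-P56 library TAM was given to the dam at embryonic day 10 (7.5 mg), and in the adult pulse library mice received 5 daily doses of 2.5 mg at 8 weeks of age; per the labels both were collected at postnatal day 56 (the methods place the adult collection later), and tdTomato+ cells were sorted before 10x 3' sequencing. The methods describe pooled tibialis anterior muscles for adult muscle libraries and take the adult pulse data from earlier work, whose pooling is not given in the sources used here. With 1 library per labelling time there was no replicate, so no test was made, and every interval below is a 95% interval for counting error only.

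Osr1 and Osr2 are odd-skipped zinc-finger factors, and Osr1 is known for marking embryonic muscle connective tissue and the fibro-adipogenic cells that derive from it. Prrx1, Meox1 and Meox2 are homeodomain factors of limb and somite mesenchyme, and Twist1, Twist2, Tcf21 and Scx are basic helix-loop-helix factors that pair with E proteins and bind E-box sequences in DNA. Scx (scleraxis) is the classical factor of tendon progenitors and tenocytes, Tcf21 is known from epicardial and visceral fibroblasts, and Gata6 is a zinc-finger factor of heart, endoderm and smooth muscle. Cells traced from Hic1+ mesenchymal progenitors in muscle include fibro-adipogenic cells, tenocytes, mural cells (pericytes, smooth muscle cell progenitors or SMCPs, and vascular smooth muscle cells or VSMCs) and the cells of the nerve sheath.

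The promoters of Twist1, Twist2 and Meox2 are shown because Twist1 and Twist2 are paralogues whose levels can be set side by side and Meox2 was the member highest in the nerve sheath. The RefSeq promoter table (GRCm38.p6, 250 bases before to 50 after the start of a gene) held 5 of the 10 members. The windows were chr12:33957421-33957720 for Twist1, chr1:91801211-91801510 for Twist2 and chr12:37108290-37108589 for Meox2, all on the + strand and printed 5′ to 3′. Capitals mark matches, on either strand, to an E-box (CANNTG) or to TATAAA; these motifs do not share positions here.
Twist1: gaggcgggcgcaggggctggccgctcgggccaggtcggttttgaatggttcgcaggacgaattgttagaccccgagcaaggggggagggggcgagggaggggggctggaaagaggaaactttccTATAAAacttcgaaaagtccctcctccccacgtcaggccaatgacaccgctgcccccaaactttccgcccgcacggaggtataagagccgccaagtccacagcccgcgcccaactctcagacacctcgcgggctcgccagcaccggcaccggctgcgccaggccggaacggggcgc
Twist2: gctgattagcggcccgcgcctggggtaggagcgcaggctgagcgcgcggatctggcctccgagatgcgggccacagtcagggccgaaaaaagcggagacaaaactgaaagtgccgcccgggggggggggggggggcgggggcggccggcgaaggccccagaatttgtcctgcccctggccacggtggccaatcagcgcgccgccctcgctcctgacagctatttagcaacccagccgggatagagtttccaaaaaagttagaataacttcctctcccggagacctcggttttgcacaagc
Meox2: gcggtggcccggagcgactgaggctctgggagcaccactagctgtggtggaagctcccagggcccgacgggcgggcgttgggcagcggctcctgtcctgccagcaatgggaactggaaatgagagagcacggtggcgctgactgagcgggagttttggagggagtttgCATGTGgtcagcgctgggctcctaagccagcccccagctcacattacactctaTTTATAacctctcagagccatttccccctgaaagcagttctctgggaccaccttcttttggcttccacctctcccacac
Twist1 had a TATAAA that began 126 bases before the start site. Meox2 had an E-box match, CATGTG, that began 82 bases before the start site and a TATAAA match on the minus strand 29 bases before it, and Twist2 had neither motif. An E-box was found in 72.3% of all 32851 promoters of this length, so its letters are common. TATAAA was found in 13.6% of them, a minority. The GC content was 66.0% for Twist1, 64.7% for Twist2 and 60.7% for Meox2, against a median of 52.7% over all promoters.

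The E10-P56 and adult pulse matrices summed to 67460919 and 69153173 UMIs (unique molecular identifiers, 1 per captured transcript) over 8236 and 9195 barcodes, of which 6087 and 8567 passed the filters as cells. Cells were placed in gates from marker lists that held none of the members: 4169 and 7022 fibroblasts (Pdgfra, Cd34, Ly6a and others), 763 and 475 mural cells (Rgs5, Notch3 and others), 133 and 392 tenocytes (Tnmd, Kera and others), 132 and 27 perineurial cells (Wnt6, Cldn1 and others) and 99 and 10 Schwann cells, in E10-P56 and the adult pulse in that order. The gates held their defining markers: Pdgfra was at 452 and 582 CPM (UMIs of a gene per 1e+06 UMIs) in fibroblasts against 8.94 and 20.8 CPM in mural cells, Rgs5 at 8459 and 11294 CPM in mural cells, and Tnmd at 2440 and 3254 CPM in tenocytes. Cells that passed several gates (167 and 189) were set aside, and 68 and 99 of these passed the tenocyte and myogenic gates together. In the cells of the tenocyte gate itself, Chodl of the myogenic list was at 1000.3 and 843 CPM while Pax7 had 0 UMIs. The part of Chodl in the cells set aside was not tested. Median depth differed among the gates, from 8875 and 7749 UMIs per cell in fibroblasts to 4381 and 3418 UMIs in mural cells. Labelling time, library and Cell Ranger version (5.0.0 and 3.0.2) differed together and cannot be told apart, and 15 barcodes, 11 of them kept cells, were shared between the libraries.

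The first comparison asked which members separate fibroblasts from mural cells. Osr1, Osr2, Twist2 and Meox1 were higher in fibroblasts in both libraries, Prrx1 was close to equal with the filters used, and Meox2 was lower in fibroblasts. A member was counted as higher or lower at 2-fold or more with an interval of the ratio that left out 1, and a gene entered the count with at least 100 UMIs in the 2 gates together. By this rule 4 of 9 members were higher and 1 lower in E10-P56, where 26.5% of all genes counted were past the rule (13.3% higher, 13.2% lower). In the adult pulse 5 of 9 were higher and 0 lower, where 27.9% of genes were past it (13.2% higher, 14.7% lower). The median log2 ratio of the 9 members was 0.79 for E10-P56 and 1.5 in the adult pulse, against -0.20 and -0.27 for all genes counted.

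**Figure D1:**
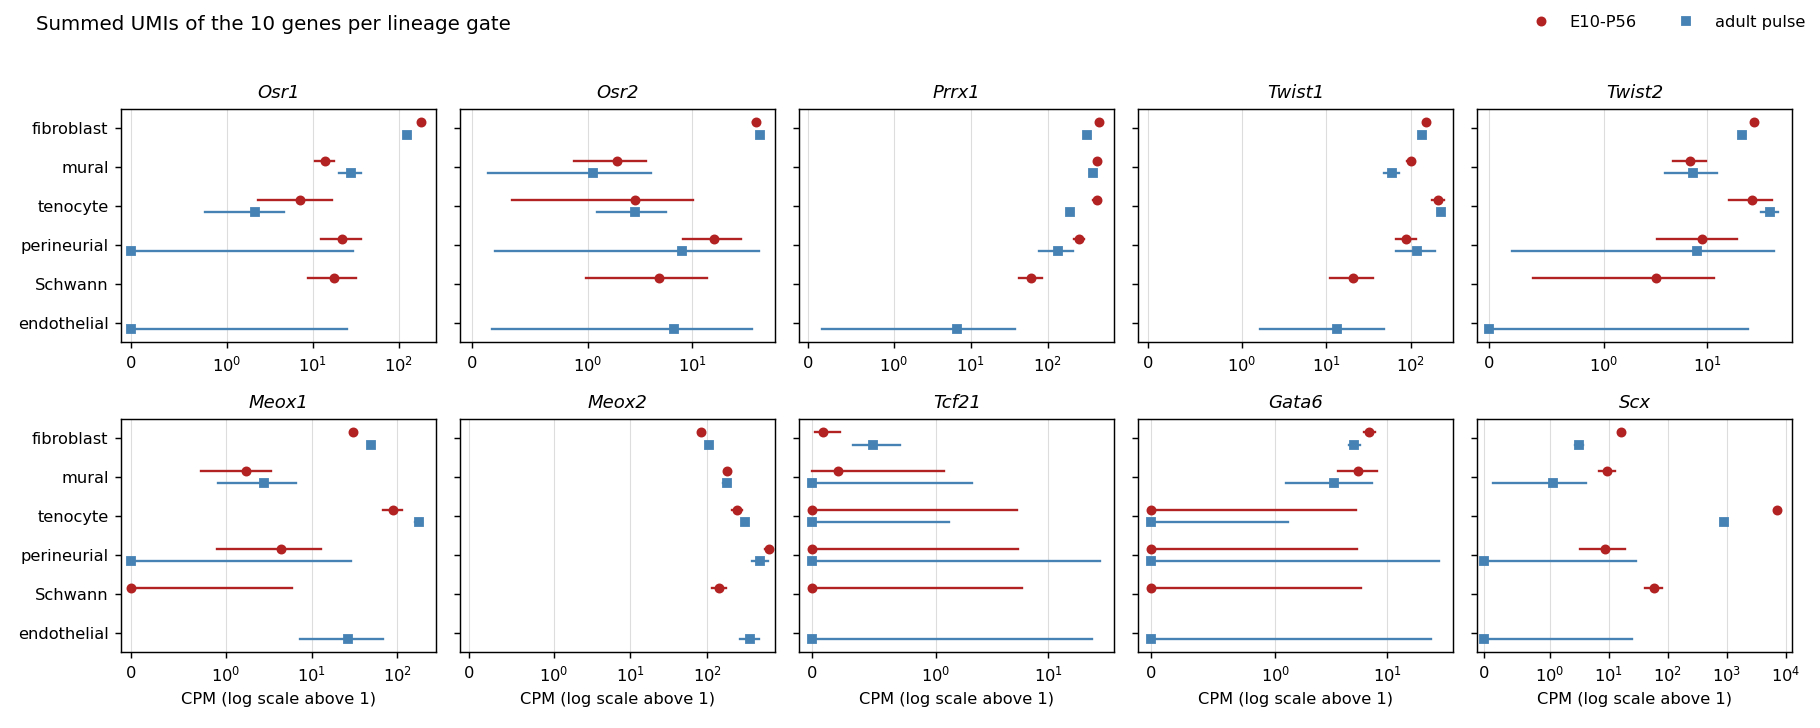
Level of each of the 10 members (CPM, log scale above 1 and linear below) in the gates with at least 20 cells of the E10-P56 and the adult pulse library; points (circles for E10-P56, squares for the adult pulse) are the summed UMIs of a gate and bars the exact Poisson interval. Scx stands at 7050.3 and 884 CPM in tenocytes, Meox2 is highest in perineurial cells, and Osr1 and Osr2 are highest in fibroblasts.

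Osr1 (chr12:9570116-9581500 on GRCm38, + strand) was at 180 CPM (interval 176-184) in E10-P56 fibroblasts and 125 CPM (122-128) in adult pulse fibroblasts, against 13.8 CPM and 27.5 CPM in mural cells. The intervals of fibroblasts and mural cells lay apart in both libraries, and the ratios were 13 (10.2-16.9) and 4.53 (3.43-6.13). After every cell was thinned to 1500 UMIs, a UMI of Osr1 was found in 19.5% of E10-P56 fibroblasts (18.3-20.7; 59.2% unthinned) and 2.62% of mural cells (1.61-4.02; 6.95% unthinned). In the Schwann gate of the same library, taken as the cells that should lack these genes (median depth 5340 UMIs), it was 1.01% (0.0256-5.50; 8.08% unthinned), so the share in mural cells was not told apart from background. The adult pulse had only 10 Schwann cells, too few for such a background.

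Osr2 (chr15:35296098-35303305, + strand) was at 40.2 CPM (38.4-42.1) and 44.3 CPM (42.7-46.1) in fibroblasts against 1.92 CPM and 1.12 CPM in mural cells. The mural values rested on 9 and 2 UMIs, so the ratios of 21.0 and 39.4 had wide intervals, 11-46.0 and 10.9-326. Twist2 (chr1:91801461-91848028, + strand) was at 28.3 CPM and 21.7 CPM in fibroblasts and 6.81 CPM and 7.31 CPM in mural cells, which gave ratios of 4.15 (2.93-6.10) and 2.96 (1.73-5.58). Meox1 (chr11:101877510-101894374, - strand) was 17.8-fold (9.01-41.3) and 17.6-fold (7.51-54.1) higher in fibroblasts, at 30.3 CPM and 49.3 CPM against 1.70 CPM and 2.81 CPM in mural cells.

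Prrx1 (chr1:163245119-163313710, - strand) was in contrast at 461 CPM (455-468) in fibroblasts and 440 CPM (421-460) in mural cells of E10-P56, a ratio of 1.05 (1.0-1.1), and at 325 CPM and 380 CPM in the adult pulse, a ratio of 0.853 (0.790-0.923). Prrx1 thus did not separate these gates by the rule, and it was found in 43.3% of thinned E10-P56 fibroblasts and 36.7% of mural cells against 8.08% of Schwann cells. Twist1 (chr12:33957671-33959829, + strand) was higher in fibroblasts in both libraries, at 151 CPM against 99.8 CPM in E10-P56 and at 134 CPM against 59.6 CPM in the adult pulse, but the ratios, 1.51 (1.37-1.66) and 2.24 (1.85-2.74), fell on either side of 2. Without the limit on mitochondrial counts E10-P56 had 1122 mural cells instead of 763. Prrx1 was then at 462 CPM in fibroblasts and 351 CPM in mural cells, and Twist1 at 150 and 77.0 CPM, so both gaps were wider. In the adult pulse these were 325 and 377 CPM for Prrx1 and 134 and 58.1 CPM for Twist1, little changed. Meox2 (chr12:37108540-37179534, + strand) was at 84.4 CPM and 106 CPM in fibroblasts and 184 CPM and 180 CPM in mural cells, 2.18-fold (2.02-2.34) and 1.70-fold (1.52-1.90) higher in mural cells. In E10-P56 the Schwann gate held Meox2 at 145 CPM (117-178), and a UMI in 11.1% of thinned cells (5.68-19.0) against 12.2% of fibroblasts, so the fibroblast share of Meox2 was not told apart from that gate. The Schwann gate also held the perineurial markers at 1238 CPM in sum, against 7557 CPM in the perineurial gate, and their part in its Meox2 was not tested.

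Fibroblasts were divided by 8 marker sets into subsets named by their leading markers. The 5 with at least 100 cells in both libraries were Pi16 Dact2 (860 and 1049 cells), Cd55 Efemp1 (363 and 1245), Col15a1 Smoc2 (835 and 2498), Apoe Cxcl13 (421 and 153) and Comp Clu (136 and 372); the Ccl2 Cxcl5 subset was large enough only in E10-P56 (89 cells) and Sox9 Trf only in the adult pulse (44 cells), while 1441 and 1651 fibroblasts scored for no subset. Osr2 was highest in Pi16 Dact2 fibroblasts and Meox1 and Meox2 in Comp Clu fibroblasts in both libraries, while Prrx1 was lowest in Col15a1 Smoc2 fibroblasts. The Comp Clu markers Comp, Cilp and Mgp were also higher in the tenocyte gate than in fibroblasts. Comp was at 1153 and 798 CPM in tenocytes against 44.4 and 25.7 CPM in fibroblasts. Cilp was at 1315 and 1666 against 194 and 321 CPM, and Mgp at 8862 and 14475 against 838 and 1715 CPM. Clu was near level. The part of this in the Meox1 and Meox2 levels was not tested. In E10-P56, 9 of 9 members were at least 2-fold apart between the highest and the lowest of 6 subsets, and in the adult pulse 7 of 9, where 50.2% and 31.1% of all genes counted were. The highest and lowest were picked by value for every gene alike. With classes taken from clusters the counts were 5 and 4, and with every cell thinned to 1500 UMIs the adult pulse count was 4.

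**Figure D2:**
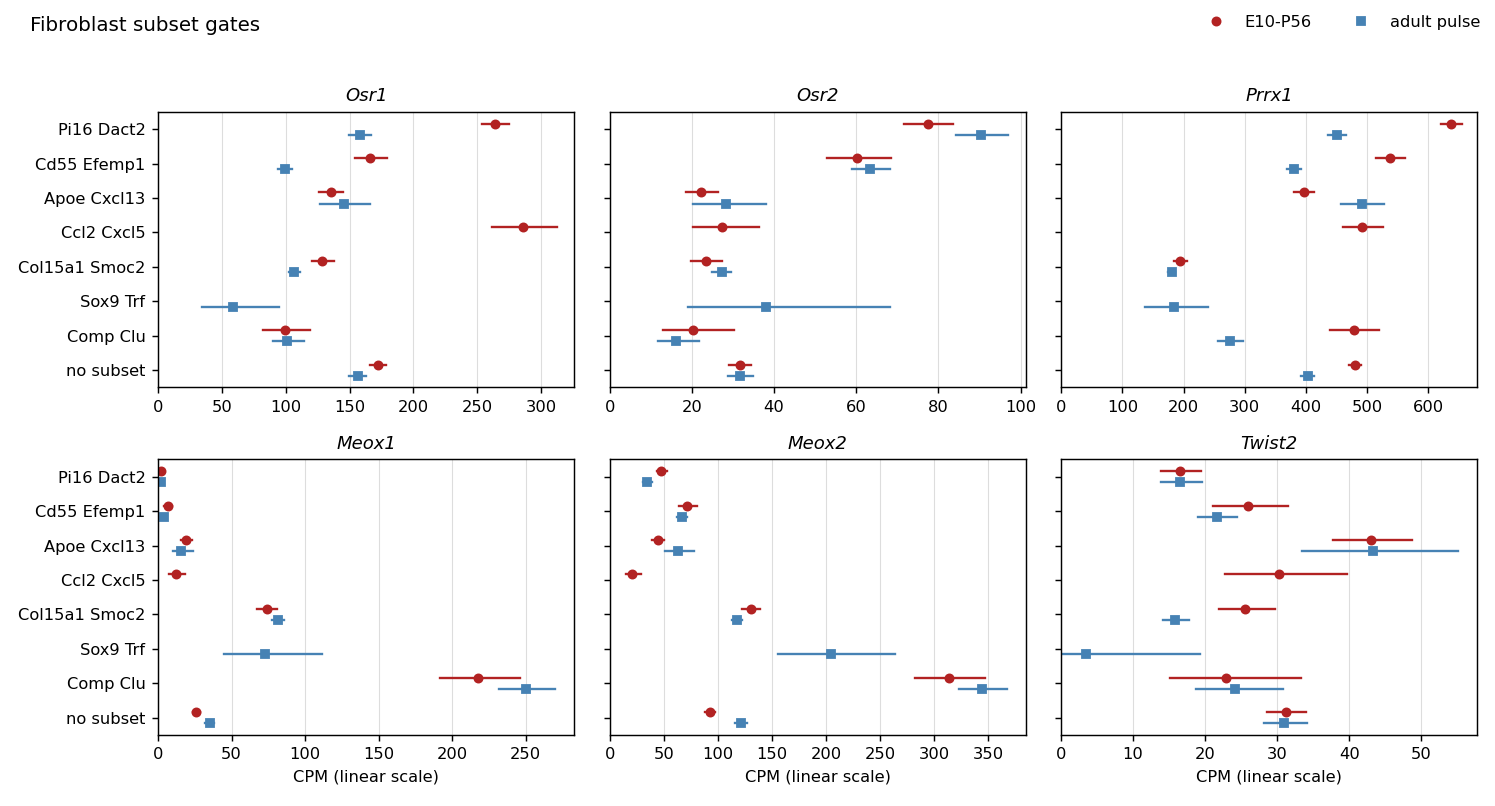
Level of Osr1, Osr2, Prrx1, Meox1, Meox2 and Twist2 (CPM, linear scale) in each fibroblast subset, and in fibroblasts of no subset, with at least 20 cells in a library; circles are E10-P56, squares the adult pulse and bars exact Poisson intervals. Meox1 goes from 1.71 and 1.86 CPM in Pi16 Dact2 to 218 and 250 CPM in Comp Clu fibroblasts, while Osr2 goes from 77.4 and 90.4 CPM down to 20.4 and 16.1 CPM.

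Meox1 had the widest spread among the members with UMIs in every subset. It was at 1.71 CPM (0.956-2.82) in Pi16 Dact2, 6.61 CPM in Cd55 Efemp1, 19.3 CPM in Apoe Cxcl13, 73.9 CPM in Col15a1 Smoc2 and 218 CPM (192-246) in Comp Clu fibroblasts of E10-P56. In the adult pulse the same subsets held 1.86 CPM (1.07-3.03), 3.74 CPM, 15.7 CPM, 81.3 CPM and 250 CPM (232-270), and the order was the same. The ratio of Comp Clu to Pi16 Dact2 was 127 (75.8-231) and 134 (82.0-236). A UMI was found in 16.9% and 27.4% of thinned Comp Clu cells (49.3% and 62.1% unthinned) and in 0.233% and 0.0953% of Pi16 Dact2 cells, against 0 of 99 Schwann cells, which allows a share of up to 3.03%.

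Meox2 had Comp Clu at the same end, at 314 CPM (282-347) and 344 CPM (323-367), against 47.9 CPM and 34.7 CPM in Pi16 Dact2 and 21.2 CPM (14.9-29.2) in the Ccl2 Cxcl5 subset of E10-P56. The ratio of highest to lowest was 14.8 (10.6-21.4) for E10-P56 and 9.92 (8.70-11.3) in the adult pulse. With classes from clusters, of which none had Comp Clu as its leading subset, it was 1.99, no longer past the rule, and 3.10. The summed tenocyte markers moved with these genes: they were at 1244 and 1043 CPM in Comp Clu fibroblasts and 42.6 and 74.0 CPM in Pi16 Dact2 fibroblasts, against 23622 and 21771 CPM in the tenocyte gate. Without the 35 and 73 Comp Clu cells that held a UMI of Tnmd, Kera, Col11a1 or Cilp2, Meox1 was at 262 and 250 CPM and Meox2 at 360.1 and 330 CPM, against 218 and 250 CPM and 314 and 344 CPM with them. In all Comp Clu fibroblasts these markers held only 358 and 130 CPM of the sum above. Thbs4 and Fmod, the rest of the list, were not used, so cells that held only those stayed in. The part of such cells in the Meox1 and Meox2 levels was not tested.

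Osr2 had the opposite order. Its level was 77.4 CPM (71.7-83.4) and 90.4 CPM (84.2-97.0) in Pi16 Dact2, 60.3 CPM and 63.4 CPM in Cd55 Efemp1, 23.3 CPM and 27.3 CPM in Col15a1 Smoc2, 22.3 CPM and 28.2 CPM in Apoe Cxcl13 and 20.4 CPM and 16.1 CPM in Comp Clu fibroblasts. The 3 lowest in E10-P56 did not differ from each other beyond their intervals. Osr1 spanned less, from 264 and 158 CPM in Pi16 Dact2 to 99.4 and 101 CPM in Comp Clu fibroblasts, with 286 CPM in the E10-P56 Ccl2 Cxcl5 subset, which was not apart from Pi16 Dact2 (ratio 1.08, 0.981-1.19), and 59.0 CPM in the adult Sox9 Trf subset.

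Prrx1 was lowest in Col15a1 Smoc2 fibroblasts in both libraries, at 195 CPM (185-206) and 181 CPM (175-187), against 637 CPM and 450 CPM in Pi16 Dact2, and in the adult pulse it was as low in Sox9 Trf (184 CPM) and highest in Apoe Cxcl13 fibroblasts (491 CPM). Twist1 was lowest there as well, at 77.7 CPM and 110 CPM, and highest in Apoe Cxcl13 fibroblasts, at 185 CPM and 192 CPM, a span of 2.38-fold (2.14-2.65) for E10-P56 and 1.74-fold (1.54-1.97) in the adult pulse. Twist2 was also highest in the Apoe Cxcl13 subset, at 43.0 CPM (37.8-48.7) and 43.3 CPM (33.5-55.1), against 16.5 CPM in Pi16 Dact2 fibroblasts of either library. In the adult pulse the lowest Twist2 level, 3.47 CPM in Sox9 Trf fibroblasts, was 1 UMI.

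In the tenocyte gate Scx, Meox1 and Meox2 were higher than in fibroblasts, and Osr1, Osr2 and Gata6 were lower, in both libraries. These 3 higher and 3 lower of 9 members stood beside 17.6% of genes past the rule in E10-P56 (8.64% higher, 8.91% lower) and 20.9% in adult pulse cells (6.97% higher, 13.9% lower). The members' median log2 ratio was -0.07 and 0.75, against 0.02 and -0.11 for all genes counted. Osr1 was at 7.08 CPM and 2.12 CPM in tenocytes, 25.4-fold (10.9-78.3) and 58.8-fold (27.0-160) lower than in fibroblasts, on 5 and 6 UMIs. Osr2 was at 2.83 CPM in both, 14.2-fold (3.93-117) and 15.7-fold (7.93-36.3) lower.

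Meox1 in tenocytes was at 87.8 CPM (67.4-113) and 176 CPM (161-193), 2.90-fold (2.21-3.74) and 3.58-fold (3.24-3.93) above fibroblasts as a whole, though below the Comp Clu subset in each library. Meox2 was at 247 CPM (211-286) and 316 CPM (295-337), 2.92-fold (2.49-3.4) and 2.99-fold (2.78-3.20) above fibroblasts. Prrx1 was close to fibroblasts in E10-P56 (431 CPM, ratio 0.933, 0.831-1.05) and lower in the adult pulse (196 CPM, ratio 0.604, 0.554-0.658), Twist1 was at 211 CPM and 225 CPM, and Twist2 at 26.9 CPM and 40 CPM; none of these reached 2-fold. Gata6 had 0 UMIs in tenocytes of both libraries, which against 6.93 and 5.10 CPM in fibroblasts is at least 1.63-fold and 4.80-fold lower with a floor of 3 UMIs over the gate, so that in E10-P56 the call rests on 0 UMIs and its bound stays under 2-fold.

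Tenocytes with a UMI of Col22a1, a collagen of the muscle-tendon junction, were set beside those without one (40 and 93 cells in E10-P56, 211 and 181 of the adult pulse). Scx was at 10550.0 CPM (10133-10979) against 5372 CPM (5166-5584) in E10-P56, a ratio of 1.96 (1.86-2.08), and at 1142 CPM against 459 CPM in the adult pulse, a ratio of 2.49 (2.25-2.75). Prrx1 went the other way in both, at 262 CPM against 511 CPM and at 136 CPM against 296 CPM, 1.95-fold (1.46-2.63) and 2.18-fold (1.84-2.59) lower in the cells with Col22a1. With the myogenic and immune gates left out, E10-P56 had 74 cells with Col22a1 and 127 without, and both gaps were smaller there. Scx was then at 9166 against 5499 CPM and Prrx1 at 327 against 467 CPM. In the adult pulse (284 and 207 cells) Scx was at 1064 against 478 CPM and Prrx1 at 135 against 288 CPM. By the rule 0 of 4 members in E10-P56 and 2 of 6 in the adult pulse (Scx and Prrx1) were past 2-fold, beside 5.55% and 8.6% of genes. Meox1 was at 153 CPM against 56.6 CPM in E10-P56, on fewer than 100 UMIs, and at 190 CPM against 154 CPM in the adult pulse. Meox2 was higher in the cells with Col22a1 in both libraries, at 341 CPM against 201 CPM (ratio 1.69, 1.24-2.31) and at 358 CPM against 246 CPM (ratio 1.45, 1.26-1.68), under 2-fold. The cells with Col22a1 were deeper (medians of 5482 against 4331 and 7286 against 5541 UMIs) and held fewer UMIs of the summed fibroblast markers (1946 against 4421 CPM and 2605 against 7491 CPM); the part of these in the result was not tested.

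Among mural cells Prrx1 was highest in SMCPs, at 737 CPM (691-785) and 681 CPM (586-786), against 257 CPM (230-286) and 235 CPM (208-265) in pericytes. The intervals lay far apart, and the ratios were 2.87 (2.53-3.26) and 2.89 (2.39-3.50). VSMCs, numerous enough only in E10-P56 (124 cells), held Prrx1 at 233 CPM (204-264), which overlapped with pericytes. Twist1 was at 180 CPM in SMCPs, 59.0 CPM in pericytes and 30 CPM in VSMCs of E10-P56, 3.05-fold (2.34-4.0) higher in SMCPs than in pericytes, whereas in the adult pulse it was at 73.2 CPM (44.7-113) and 53.1 CPM (40.6-68.2), which overlapped. By the rule 2 of 3 members in E10-P56 and 1 of 2 in the adult pulse were higher in SMCPs, beside 5.62% and 1.97% of genes. Meox2 was near level over the mural subsets, at 205, 181 and 167 CPM in SMCPs, pericytes and VSMCs of E10-P56 and 154 and 177 CPM in SMCPs and pericytes of the adult pulse. Osr1 lay between 8.52 and 31.4 CPM in these 5 populations, and Osr2, Twist2, Meox1, Tcf21, Gata6 and Scx had at most 23 UMIs in each, too few to order them.

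**Figure D3:**
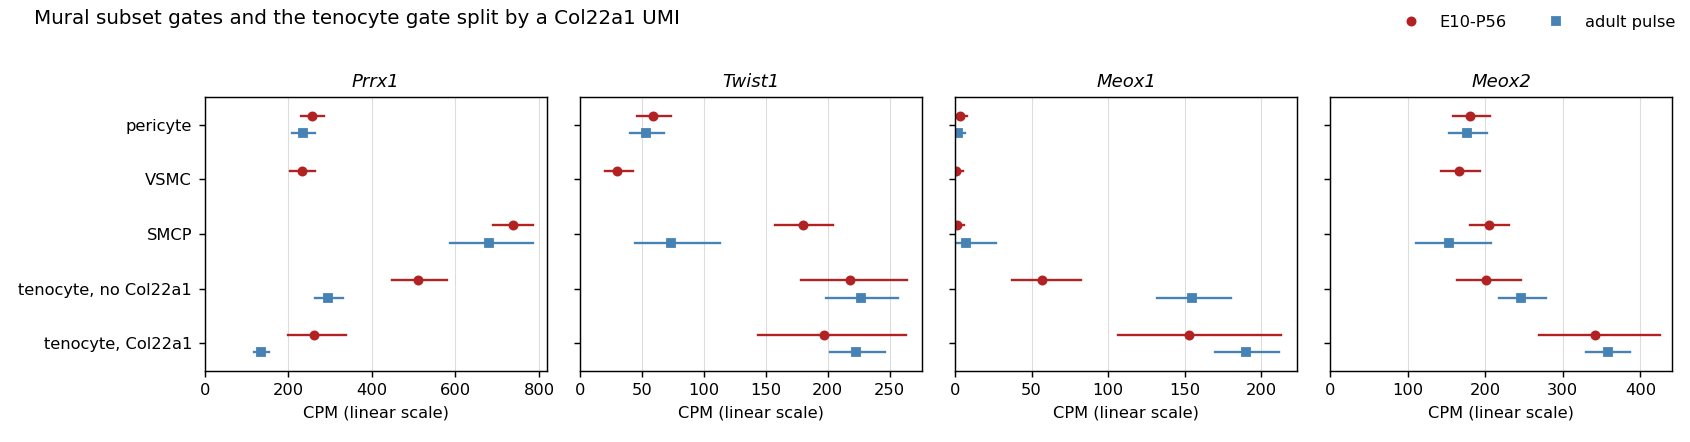
Level of Prrx1, Twist1, Meox1 and Meox2 (CPM, linear scale) in the mural subsets and in tenocytes with and without a Col22a1 UMI, for populations of at least 20 cells; circles are E10-P56, squares the adult pulse and bars exact Poisson intervals. Prrx1 is higher in SMCPs than in pericytes (737 against 257 CPM and 681 against 235 CPM) and lower in tenocytes with Col22a1 than in those without.

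Scx (chr15:76457452-76459458, + strand) was at 7050.3 CPM (6856-7249) in E10-P56 tenocytes and 884 CPM (849-919) in adult pulse tenocytes, against 16.2 and 3.19 CPM in fibroblasts. A UMI was found in 85.7% (78.6-91.2) and 53.1% (48.0-58.1) of thinned tenocytes, 96.2% and 80.6% unthinned. The level in E10-P56 tenocytes was 7.98-fold (7.60-8.37) that of the adult pulse, and 8.12-fold in cells with at least 3000 UMIs, while Tnmd, a membrane protein of mature tenocytes, was lower in E10-P56 (2440 against 3254 CPM) and Mkx, another tendon transcription factor, was at 113 and 97.4 CPM. The libraries also differed there in a feature named SSM2GFP, a green fluorescent protein sequence added to the reference. The labels name no GFP allele, and the methods describe a separate line with a Scx-GFP transgene. Whether the E10-P56 pool held an animal of that line is not given in the sources used here, so the Scx level, its excess over the adult pulse and the genotype given for this library carry that limit.

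SSM2GFP was at 183 CPM (153-217) in E10-P56 tenocytes, against 3.59 CPM in fibroblasts and 3.41 CPM in mural cells of that library. In the adult pulse it was at 11 CPM in tenocytes, 14.5 CPM in fibroblasts and 34.3 CPM in mural cells, with no excess in tenocytes. In E10-P56 the 44 tenocytes with a UMI of it held Scx at 13465 CPM (13028-13913), and the 89 without held 3166 CPM (3002-3337), while Tnmd was at 2329 and 2507 CPM in these cells. The cells with the feature were deeper (median 6150 against 3835 UMIs). Scx was in the adult pulse at 923 CPM (27 cells) and 880.4 CPM (365 cells). Scx lies inside the span of Bop1, which is on the opposite strand, and Bop1 was at 93.9 and 29.6 CPM in E10-P56 tenocytes with and without the feature. The strand setting of the counting is not given in the sources used here, and the part of SSM2GFP and Bop1 in the Scx values was not tested.

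**Figure D4:**
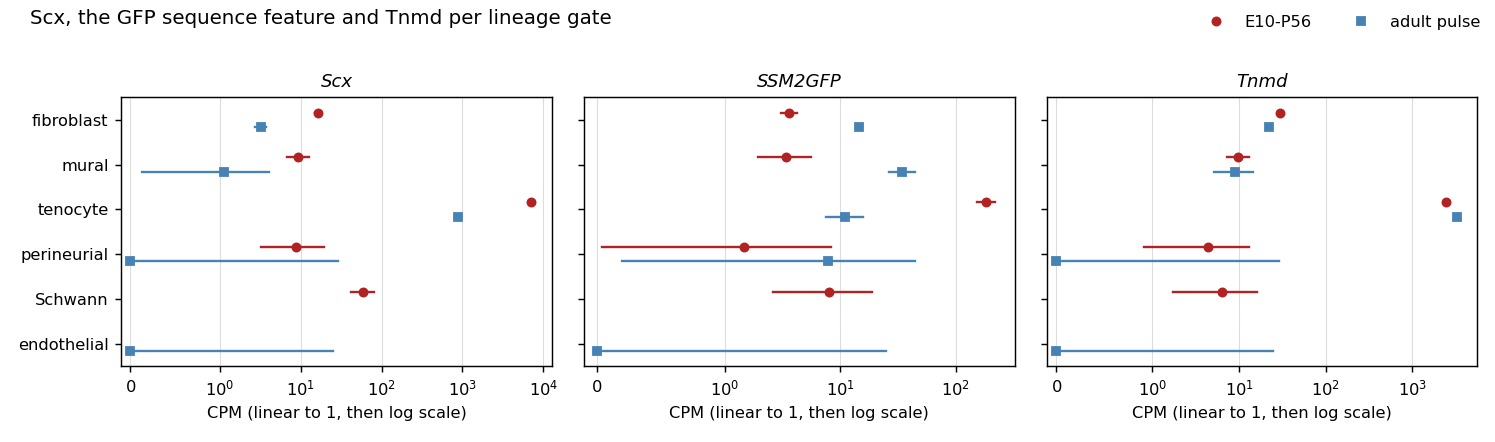
Level of Scx, SSM2GFP and Tnmd (CPM, linear to 1 and then log scale) in the gates with at least 20 cells; circles are E10-P56, squares the adult pulse and bars exact Poisson intervals. SSM2GFP stands at 183 CPM in E10-P56 tenocytes against 11 CPM in the adult pulse, where Scx is at 884 instead of 7050.3 CPM and Tnmd is no lower.

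Scx UMIs were few in fibroblasts and sat to a large part in a few cells. In E10-P56 fibroblasts a UMI was found in 1.87% of thinned cells (6.86% unthinned), below the 10.1% (4.95-17.8, 21.2% unthinned) of the Schwann gate. The Schwann level was 58.9 CPM, above the 9.37 and 8.82 CPM of mural and perineurial cells, so that gate is no common background for Scx. It cannot tell whether the fibroblast share is expression, and the share is not read as such. A Scx UMI was found in 0.299% of thinned fibroblasts and 0.421% of mural cells of the adult pulse, which had too few Schwann cells for this comparison. Of the 732 Scx UMIs in E10-P56 fibroblasts, 401 were in 5 cells with at least 10 each, and without these cells the level was 7.35 CPM (6.58-8.18). Of the 187 UMIs in adult pulse fibroblasts, 92 were in 7 such cells, and the level without them was 1.62 CPM (1.31-1.98). Comp Clu fibroblasts were highest among the subsets counted, at 27.2 and 13.6 CPM. These became 16.7 and 3.36 CPM without the cells that held a UMI of Tnmd, Kera, Col11a1 or Cilp2.

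In perineurial cells, which form the sheath around nerve fascicles, Meox2 was higher than in any other gate of at least 20 cells. It was at 638 CPM (580-701) for E10-P56 and 496 CPM (381-634) in the adult pulse, 7.56-fold (6.83-8.35) and 4.69-fold (3.60-6.01) above fibroblasts, and it was found in 59.1% (50.2-67.6) and 48.1% (28.7-68.1) of thinned cells. In the adult pulse the 46 endothelial cells came next at 362 CPM (272-473), which overlapped. By the rule 1 of 9 members was higher and 5 lower in E10-P56, beside 23.3% of genes past it (13.8% higher, 9.56% lower), and 1 was higher and 4 lower in the adult pulse, beside 14.4% (9.09% higher, 5.34% lower). These 6 and 5 became 3 and 2 with every cell thinned to 1500 UMIs, and the adult pulse count was 2 with a mitochondrial limit of 5%. The members' median log2 ratio was -1.31 and -2.49, against 0.19 and -0.05 for all genes counted.

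The members lower in perineurial cells of E10-P56 were Osr1 (22.1 CPM, 8.16-fold, 4.94-14.6), Osr2 (16.2 CPM, 2.49-fold, 1.39-4.99), Twist2 (8.82 CPM, 3.21-fold, 1.47-8.75), Meox1 (4.41 CPM, 6.87-fold, 2.35-33.3) and Gata6, which had 0 UMIs and was at least 1.57-fold lower. Prrx1 was at 256 CPM (219-297) and Twist1 at 88.2 CPM (67.3-114), 1.80-fold and 1.71-fold lower than in fibroblasts. In the 27 adult pulse cells Prrx1 was at 134 CPM (78.0-214), 2.43-fold lower, Osr2 had 1 UMI, and Osr1 and Meox1 had 0 UMIs, at least 5.29-fold and 2.09-fold lower. The perineurial gate also held the summed fibroblast markers at 10103 and 9729 CPM, against 31183 and 37407 CPM in fibroblasts, and their part in these values was not tested.

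Tcf21 and Gata6 were at the low end. Tcf21 had 7 UMIs for E10-P56 and 30 in the adult pulse over all kept cells, 4 and 29 of them in fibroblasts, so it entered no count, and 20 of the adult pulse UMIs were in fibroblasts of no subset. The 30 adult pulse UMIs were in 16 cells, and a single cell held 11 of them. Gata6 had 455 and 329 UMIs, at 6.93 CPM (6.18-7.74) and 5.10 CPM (4.53-5.71) in fibroblasts and 5.53 CPM and 3.37 CPM in mural cells, which overlapped. It had 0 UMIs in tenocytes, perineurial cells and, in E10-P56, Schwann cells. Among the E10-P56 subsets it was highest in Apoe Cxcl13 fibroblasts at 9.92 CPM (7.51-12.8) and lowest in Col15a1 Smoc2 at 2.51 CPM (1.46-4.02); in the adult pulse it was at 9.18 CPM in Apoe Cxcl13 and 12.5 CPM (10.7-14.5) in fibroblasts of no subset. In E10-P56, 100 of the 455 UMIs were in 63 cells that passed no gate. Annotated genes on the opposite strand overlap Tcf21, Gata6, Meox1, Prrx1, Twist2 and Osr1. Without the strand setting, reads of such a partner cannot be told apart from theirs. Genes on the same strand overlap Prrx1, Twist2 and Meox2, and their part in these values was not tested.

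Between the libraries, 8 of 9 members lay within 2-fold in fibroblasts. Scx was past the rule, 1 of 9 beside 9.15% of all genes counted, at 16.2 against 3.19 CPM (5.08-fold, 4.32-6.00), on UMIs concentrated in few cells as given above. Of the other 8, the largest ratios were those of Osr1 (180 against 125 CPM, ratio 1.44) and Prrx1 (461 against 325 CPM, ratio 1.42), and the smallest that of Meox1 (30.3 against 49.3 CPM, ratio 0.614). Within the Comp Clu subset Meox1 was at 218 and 250 CPM (ratio 0.870, 0.750-1.01) and within Pi16 Dact2 at 1.71 and 1.86 CPM, so the difference over all fibroblasts was not seen within those subsets. By the levels given above, Meox1 was higher in E10-P56 within Cd55 Efemp1 and Apoe Cxcl13 fibroblasts and lower within Col15a1 Smoc2 fibroblasts. The difference of Osr1 was seen in Pi16 Dact2 (264 against 158 CPM, ratio 1.67, 1.56-1.79) and in Cd55 Efemp1 fibroblasts (166 against 99.4 CPM, ratio 1.67). It was not seen in Comp Clu (99.4 against 101 CPM) or Apoe Cxcl13 fibroblasts (135 against 146 CPM). A smaller difference of the same direction was seen in Col15a1 Smoc2 fibroblasts (129 against 107 CPM). Fibroblasts of no subset also had a smaller one (172 against 156 CPM).

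In tenocytes 3 of 6 members were past the rule between the libraries, beside 9.03% of genes: Scx (above) and Prrx1 (431 against 196 CPM, ratio 2.20, 1.90-2.53) higher in E10-P56 and Meox1 lower (87.8 against 176 CPM, 2.01-fold, 1.54-2.66). The adult pulse had a larger part of its tenocytes with a Col22a1 UMI, 211 of 392 against 40 of 133. In tenocytes with Col22a1 alone Prrx1 was at 262 and 136 CPM and Meox1 at 153 and 190 CPM, and in those without at 511 and 296 CPM and at 56.6 and 154 CPM. Twist1 (211 and 225 CPM) and Meox2 (247 and 316 CPM) lay within 2-fold. In mural cells as a whole 0 of 4 members were past the rule, beside 7.35% of genes. Within SMCPs alone Twist1 was past it, higher in E10-P56 at the levels given above, and within pericytes no member was.

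The members were also found together in single cells, counted without thinning. In Comp Clu fibroblasts 53 of 136 cells of E10-P56 and 186 of 372 of the adult pulse held UMIs of both Meox1 and Meox2, against 7 of 860 and 5 of 1049 in Pi16 Dact2. Osr1 and Osr2 shared 280 of 860 and 303 of 1049 Pi16 Dact2 fibroblasts, but 0 of 133 and 1 of 392 tenocytes. Of the Comp Clu cells, 14 and 45 held Meox1 without Meox2, and 44 and 75 held Meox2 without Meox1. Such counts rise with the share of cells that hold each gene, and an excess over that was not tested. Across the 12 populations with at least 20 cells in both libraries, which share depth and library, log2(CPM + 5) of Osr1 and Osr2 correlated at Pearson r = 0.92 for E10-P56 and 0.75 in the adult pulse, and Twist1 and Twist2 at 0.55 and 0.80. Osr1 and Meox2 correlated at -0.68 and -0.75, and Meox1 and Meox2, alike in Comp Clu cells, only at 0.25 and 0.35. These are descriptions over 12 points each.

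Over the same 12 populations and 11289 genes, the gene most like Scx was Mkx (r = 0.99 and 0.98), then Ptx4 and Col11a1, the last of which is a gate marker. Osr1 was most like Ecm1, Man1a and H2-M3 (lower r of the libraries at least 0.92), and Osr2 most like Emilin2, Serpinb6a and Lrrn4cl (at least 0.94). Twist2 was most like Col1a1, Ctsk and Col1a2, of which Col1a1 and Col1a2 encode the chains of type I collagen (lower r 0.87, 0.86 and 0.86). Meox1 was most like Cilp, a marker of the Comp Clu set, Lrrn2 and Mfap4, and Meox2 most like Sept6, Mmgt2 and Trib2. Likeness was weaker for Prrx1, whose closest gene Gm26523 lies within it on the same strand (0.74), and for Gata6 (Fst, 0.76).

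Other transcription factors on 5 lists of 46 genes set the members beside their partners. The E proteins Tcf3, Tcf4 and Tcf12, with which Twist and Scx factors pair, were within 2-fold between fibroblasts and mural cells in both libraries (0 of 3). Against fibroblasts, 1 of 3 was higher in E10-P56 tenocytes and 0 in adult pulse tenocytes, beside 8.64% and 6.97% of all genes counted. The counts were also 1 and 0 in perineurial cells, beside 13.8% and 9.09%. Of the Id genes, whose products bind E proteins and keep them off DNA, Id4 and Id1 were lower in fibroblasts than in mural cells in both libraries. Id2 was higher in fibroblasts in the adult pulse (62.5 against 28.7 CPM, ratio 2.18, 1.66-2.93), while its ratio for E10-P56 was 1.58, under 2-fold. Id4 was at 4.36 and 7.40 CPM against 82.4 and 169 CPM in mural cells, and Id2 was 2.60-fold and 2.78-fold higher in tenocytes than in fibroblasts. Id1 was also past the rule there in E10-P56 (4.23-fold higher), and Id4 was lower in the adult pulse (2.12 against 7.40 CPM, on 6 UMIs). Of the 21 other mesenchymal factors counted, 6 were higher and 7 lower in fibroblasts than in mural cells of E10-P56, beside 13.3% and 13.2% of all genes counted, and 5 and 8 in the adult pulse, beside 13.2% and 14.7%. Prrx2, the paralogue of Prrx1, was 28.4-fold (16.6-53.3) and 20-fold (9.20-54.6) higher in fibroblasts, at 78.5 and 67.6 CPM, while Tbx2 was at 4.25 and 4.11 CPM against 212 and 160 CPM in mural cells.

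In tenocytes Mkx was 190-fold (121-305) and 163-fold (115-239) above fibroblasts, and Zeb2 and Ebf2 were lower, at 39.7 and 32.6 CPM against 362 and 367 CPM and at 19.8 and 19.1 CPM against 164 and 177 CPM. Of 22 other mesenchymal factors counted, 5 were higher and 4 lower in E10-P56 tenocytes, beside 8.64% and 8.91% of all genes counted, and 3 and 6 in the adult pulse, beside 6.97% and 13.9%. Of the skeletal list, Runx2, a factor of bone and cartilage, was 3.79-fold and 2.70-fold higher in tenocytes, and Sox5 was lower. Sox5 was at 0 and 3.54 CPM against 25.7 and 28.2 CPM in fibroblasts. By the rule 1 of 3 skeletal factors counted was higher and 1 lower in E10-P56, and 2 and 2 of 4 in the adult pulse. These stand beside the same shares of all genes counted as above. In perineurial cells Nr2f2 was at 2106 and 1661 CPM against 35.3 and 42.0 CPM in fibroblasts and Foxc1 at 143 and 86.6 CPM against 4.96 and 8.42 CPM, so the nerve sheath shared high Nr2f2 with mural cells (833 and 753 CPM). Of the 9 genes of the mural list only 3 had enough UMIs to be counted, and these, Heyl, Foxs1 and Tbx18, were higher in perineurial cells than in fibroblasts in both libraries, beside 13.8% and 9.09% of all genes counted.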

How the data were processed

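The authors deposited UMI counts for each gene in each barcode, without normalization, and these were used as they stood: per the file headers they came from Cell Ranger 5.0.0 (E10-P56) and 3.0.2 (adult pulse), and the methods name a modified mm10 genome. The counting strand is not given in the sources used here, the labels give v2 or v3 10x chemistry without saying which library had which, and the adult pulse came from earlier work. Barcodes under 1500 UMIs or over 10% of mitochondrial counts were left out. Each cell was scored on a gate as the mean over its markers of ln(1 + UMIs per 10000), and passed at 0.5 of the median of the 20 highest scores over both libraries; a cell of several lineage gates went to the highest if it was 1.5 times the next, and cycling cells were set aside. The gates are reconstructions, not the study's own classes. Subsets were given by the highest relative score of at least 1.

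UMIs were summed over a population and given in CPM with exact Poisson 95% intervals, ratios with exact conditional binomial intervals, and shares of cells with exact Clopper-Pearson intervals after thinning to 1500 UMIs (fixed random seed). Intervals cover counting error only. A floor is 3 counts. No doublets were removed from the values reported: the automatic threshold of scanpy's Scrublet 1.11.5 marked 15 cells (0.246%) and 4 cells (0.0467%), so it had not worked, and the 5% of cells with the highest scores were left out in an alternative. Gene positions came from GENCODE M21 on GRCm38 and promoters from RefSeq. Python 3.11.15, numpy 2.4.6, scipy 1.17.1, pandas 2.3.3, scikit-learn 1.9.0, leidenalg 0.10.2, python-igraph 0.11.9 and matplotlib 3.10.9 were used. The gating and ratios were tested on simulated data, gated with the limits of the real libraries. The rule was to describe all 10 members in populations of at least 20 cells, some of them here only by range or in the figures, with at most 3 genes per list that were past 2-fold in the same direction in both libraries and, for likeness, the 3 genes with the highest lower r. The members and lists were chosen with earlier results of these data known.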

Additional observations from a re-analysis of the deposited data

Results flagged for a closer look

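The green fluorescent protein feature SSM2GFP was at 182.8 CPM in E10-P56 tenocytes, a signal in a feature that none of the comparisons uses, against 3.59 CPM in fibroblasts, 3.41 CPM in mural cells and 7.96 CPM in Schwann cells of that library and 11 CPM in adult pulse tenocytes. Its part in the Scx level of these cells was not tested.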

How the results depend on the processing

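Over 12 alternatives (other mitochondrial, UMI and gate limits, thinning, doublet scores, another CPM base, means over cells, classes from clusters and, chosen after seeing the data, gates without the myogenic and immune lists), 102 counts of members stayed within 1.5 times the value reported and 6 did not. For perineurial cells against fibroblasts the count was 2 in the adult pulse with a mitochondrial limit of 5%, and 3 for E10-P56 and 2 in the adult pulse with every cell thinned to 1500 UMIs, against 6 and 5 as reported; thinning leaves fewer UMIs to count. Among fibroblast subsets it was 4 in the adult pulse after thinning, and 5 for E10-P56 and 4 in the adult pulse with classes from clusters, against 9 and 7; clusters were mostly of 1 library (37 and 2475 cells in the largest), and the cause was not tested. Of ratios of members past 2-fold, 501 stayed inside the counting interval of the ratio reported, 79 moved out of it and 0 reversed. Where that interval is wide, a ratio inside it may still have changed in size. Meox2 in fibroblasts against mural cells of E10-P56 kept its call in 10 of 12 alternatives, Twist1 in the adult pulse in 11, Osr2 in adult pulse perineurial cells in 6, the Scx spread over adult pulse subsets in 4 and the Meox2 spread over E10-P56 subsets in 11; Scx in tenocytes, Meox1 and Meox2 in tenocytes and Meox2 in perineurial cells kept theirs in 12 of 12 in both libraries.

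Shares moved with depth: the share of tenocytes with a UMI of Scx was 96.2% in E10-P56 without thinning, and 70.5% thinned to 3000 UMIs and 80.6% without thinning in the adult pulse, and that of fibroblasts with a UMI of Osr1 was 34.8% thinned to 3000 UMIs and 59.2% without thinning in E10-P56, and 27.9% and 50.8% in the adult pulse. No paired analysis was possible because there was 1 library per labelling time and no test. No replicate could be left out.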
